A study of Mus musculus with 12 samples.

Results

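Hair cell mechanotransduction and tip-link genes encode the machinery with which the sensory cells of the inner ear turn sound into a current. They were taken here as 10 genes, matched by Ensembl identifier to rows of the read count table: Tmc1, Tmc2, Tmie, Lhfpl5 and Cib2 of the channel complex, Pcdh15 and Cdh23 of the tip link, and Myo7a, Ush1c and Ush1g of its upper anchor. The table held 35496 genes, of which 19497 had enough reads to be tested, and all 10 genes were among these. RNA came from the whole cochlea, the hearing organ, of inbred FVB/NCrl mice at postnatal day 60, and the labels name no transgene, mutation or drug in any group. Awake animals spent 30 minutes in noise at 94 dB SPL (4 libraries) or 105 dB SPL (4 libraries), and the control animals had 30 minutes at the ambient level of 70 dB SPL (4 libraries). RNA was taken immediately afterwards, so the data cover the first moments after the sound. Whether a library came from 1 animal or from several is not stated, and a p-value here reflects only how these libraries vary, which may be technical.

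A hair cell carries a bundle of actin-filled stereocilia in rows of rising height, and a fine filament, the tip link, joins the tip of each shorter stereocilium to the side of its taller neighbour. When sound tilts the bundle, the tip link tightens and a cation channel at its lower end opens. TMC1 and TMC2 form the pore, TMIE and LHFPL5 are partners needed to bring the complex to the tip and to gate it, and the calcium-binding protein CIB2 binds TMC1. PCDH15 is the lower and CDH23 the upper part of the tip link, and the motor myosin VIIa (Myo7a), the scaffold harmonin (Ush1c) and Sans (Ush1g) hold its upper end. Mutations in most of these genes cause deafness in mice or humans, and loud sound can break tip links. Cib2, Myo7a and Ush1c are also active in tissues other than the ear.

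Library totals ran from 31141706 to 42317781 counts at 70 dB, from 32302796 to 38733490 at 94 dB and from 32057388 to 40239711 at 105 dB. All 20 genes of a hair cell marker list had at least 3 counts in every library, and their summed level was 1570 to 1910 CPM (counts-per-million, scaled by TMM factors) at 70 dB, 1710 to 2300 CPM at 94 dB and 1700 to 2160 CPM at 105 dB. Pvalb and Calb2, which other cells also make, gave 35.1% and 33.3% of that sum. Slc26a5, which encodes the outer hair cell motor prestin, had only 6 to 21 counts per library. The libraries also held RNA of genes taken as markers of other tissues. At 70 dB 5 vestibular markers summed to 97.4 to 108 CPM. Their sum was 87.7 to 93.7 CPM at 94 dB and 92.3 to 100 CPM at 105 dB. Most of it was Anxa4, which averaged 68.8, 59.1 and 65.9 CPM in the same order. Cib3, also counted below among the hair bundle genes, averaged 14.7, 13.6 and 15.4 CPM. The tissue that gave these reads was not tested. The sum of 10 skeletal muscle genes was 6400 to 9890, 5090 to 10400 and 8230 to 10400 CPM. Replicates 3 and 4 of the 94 dB group had the lowest mitochondrial shares of the 12 libraries, at 2.69% and 2.73%, and the 94 dB values of each gene are given with and without them below. In bulk RNA, fewer cells of a type and less RNA per cell cannot be told apart.

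Read per length of exon, the 10 genes spanned a range of levels wide enough that most neighbours in the order did not overlap. At 70 dB Cib2 was the most abundant at 23.9 ± 2.41 RPKM (the CPM divided by the exon length in kilobases; mean ± SD, n = 4 here and below). Ush1c followed at 10.5 ± 0.143 RPKM, Tmie at 3.79 ± 0.243 RPKM, Lhfpl5 at 2.78 ± 0.595 RPKM and Myo7a at 2.61 ± 0.295 RPKM. Below these came Tmc1 at 1.13 ± 0.151 RPKM, Ush1g at 0.692 ± 0.14 RPKM and Cdh23 at 0.425 ± 0.012 RPKM, with Tmc2 at 0.156 ± 0.032 RPKM and Pcdh15 at 0.116 ± 0.0219 RPKM last. Tmie and Lhfpl5, Lhfpl5 and Myo7a, and Tmc2 and Pcdh15 had overlapping ranges at 70 dB and so were not separated by the spread of their libraries.

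The first 8 places of this order were the same in all 3 groups by their means, and only Tmc2 and Pcdh15 changed places, at 94 dB. The order of these 2 also depended on the length used: Pcdh15 has many transcript forms whose exons join to 23773 bases, and per length of its longest transcript it stood at 0.302 RPKM, above Tmc2 at 0.155 RPKM. Among the genes of the channel complex the RNA level of Cib2 was 21.6 ± 4.69 times that of Tmc1 at 70 dB, 33.5 ± 9.46 times at 94 dB and 26.9 ± 4.12 times at 105 dB. Tmc1, the pore subunit of the mature cochlea, stood 7.37 ± 0.917 times above Tmc2, which is used mainly in the young cochlea and in the vestibular organs. That ratio was 11.6 ± 3.71 at 94 dB and 6.91 ± 2.82 at 105 dB. Of the tip-link genes Cdh23 stood 3.80 ± 0.885 times above Pcdh15 at 70 dB, 5.28 ± 0.521 times at 94 dB and 4.89 ± 0.943 times at 105 dB. All of these are ratios of RNA in the whole cochlea, not within a hair cell or a protein complex. Cib2 is also active in other tissues, and its share from hair cells was not measured. These ratios also move by more than 1.5 times with the length used. Per length of the longest transcript, at 70 dB, Cib2 was 12.2 ± 2.66 times Tmc1, Tmc1 13.0 ± 1.62 times Tmc2 and Cdh23 2.22 ± 0.517 times Pcdh15.

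**Figure D1:**
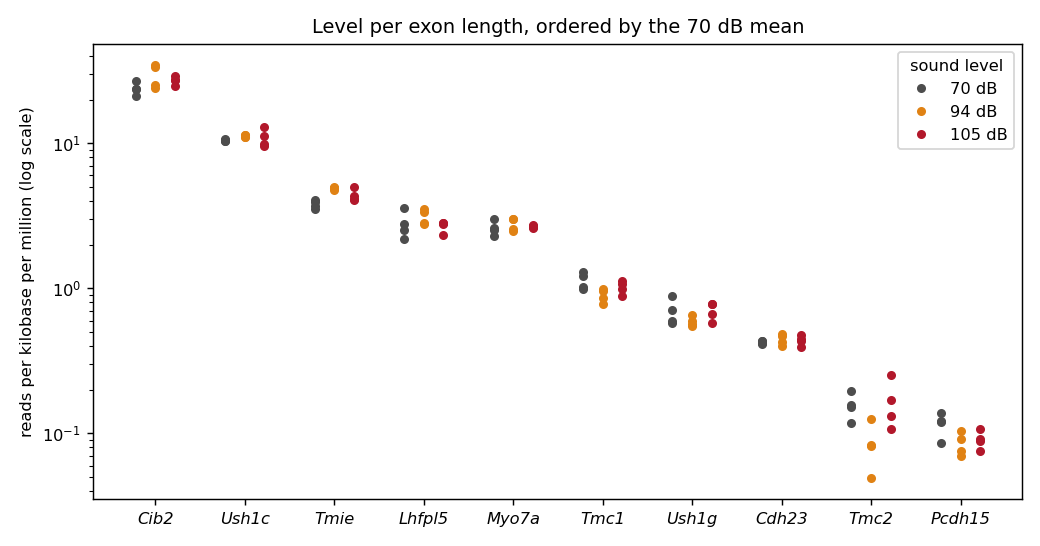
Level of each gene per length of exon in RPKM, on a log axis, with 1 point per library and the 3 sound levels side by side for each gene. The genes run from Cib2 at 23.9 RPKM to Pcdh15 at 0.116 RPKM by their 70 dB means, and the 3 groups of a gene lie close together compared with the distance between most genes.

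Across the 3 comparisons 1 of the 10 genes changed at 1 sound level. Tmie was higher at 94 dB than at 70 dB, 1.29-fold (95% interval 1.13 to 1.47), by edgeR's quasi-likelihood test with Benjamini-Hochberg adjustment over all 19497 genes at a threshold of 0.05. The other 9 genes were not called at 94 dB, and none of the 10 was called at 105 dB against 70 dB or at 105 dB against 94 dB. Of all genes tested, 26.1% were called at 94 dB against 70 dB (13.9% higher and 12.2% lower, each as a share of all genes tested). Against 70 dB, 1.62% were called at 105 dB (1.11% higher, 0.508% lower), and 17.3% were called at 105 dB against 94 dB (8.06% higher, 9.23% lower). The 1 of 10 at 94 dB is thus no larger a share than among all genes.

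At an unadjusted p under 0.05 there were 5 of 10 genes at 94 dB against 70 dB, beside 38.3% of all genes, then 1 of 10 beside 18.7% at 105 dB against 70 dB and 1 of 10 beside 31.5% at 105 dB against 94 dB. DESeq2 called 3 of 10 genes at 94 dB against 70 dB, beside 5748 of the 19244 genes it gave an adjusted p. It called none of the 9 with an adjusted p in each of the other comparisons. Over all genes it called 887 of 17899 at 105 dB against 70 dB and 4139 of 17229 at 105 dB against 94 dB. The 5 genes at 94 dB were Tmie and Cib2, with values above 0, and Tmc1, Tmc2 and Pcdh15, with values below 0. The median log2 fold change of the 10 was 0.07 at 94 dB against 70 dB, beside -0.02 for all genes, and 0.03 at 105 dB against 70 dB, beside -0.0039.

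**Figure D2:**
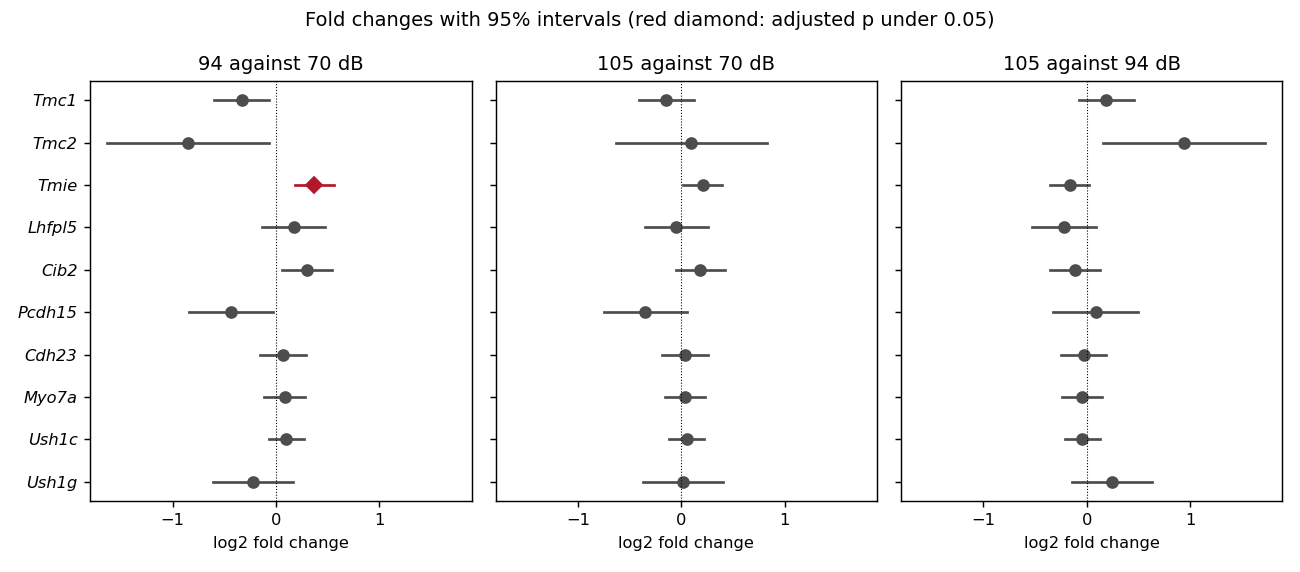
Log2 fold change of each gene in the 3 comparisons (94 against 70 dB, 105 against 70 dB and 105 against 94 dB), with points for the fitted value, bars for 95% intervals from edgeR's fit to all 12 libraries and the genes ordered by role. Tmie at 94 against 70 dB, at 0.37 and drawn as a red diamond, is the 1 value past the adjusted threshold, and the intervals of Tmc2 are the widest of the 10 genes.

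Tmie (ENSMUSG00000049555, chromosome 9, 110865711 to 110880113, minus strand, mm10), the transmembrane partner of the TMC channels, had 15.4, 15.2, 15.3 and 14.7 CPM in the 94 dB libraries, against 12.5, 10.8, 11.4 and 12.1 CPM in the 70 dB libraries. Every 94 dB library was above every 70 dB library, and the 94 dB values lay close together. The log2 fold change was 0.37 (SE 0.09, 95% interval 0.18 to 0.56, edgeR adjusted p = 0.00691). The 105 dB libraries had 12.7, 12.5, 15.4 and 13.5 CPM, of which replicate 3 was as high as the 94 dB libraries and the other 3 lay between the 2 groups. The 105 dB value against 70 dB was 0.21 (SE 0.09, edgeR adjusted p = 0.232), although the groups did not overlap: the lowest 105 dB library had 12.54 CPM and the highest 70 dB library 12.53 CPM. Against 94 dB it was -0.17 (SE 0.09, adjusted p = 0.217), and those groups overlapped.

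The Tmie difference at 94 dB did not rest on 1 library: with each of the 12 left out in turn, the edgeR adjusted p ran from 0.00373 to 0.0236. Without replicates 3 and 4 of the 94 dB group the log2 fold change was 0.39 (adjusted p = 0.0447), in a fit that called 1610 genes where the whole set gave 5085. The difference was not called once each library was corrected for a smooth dependence on base composition and length of the transcripts (the GC and length trend): it was then 0.20 (adjusted p = 0.113). Tmie also shares 244 bases of exon, 7.89% of its exon length, with Als2cl on the opposite strand, and the use of strand in counting is not given in the sources used here. Als2cl averaged 33.1 ± 2.04 CPM at 94 dB and 30.1 ± 1.59 CPM at 70 dB (log2 fold change 0.14, adjusted p = 0.167). The part of those shared reads in the Tmie counts was not tested.

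Per length, Tmie was 5.52 ± 0.602 times Tmc1 at 94 dB (range 4.96 to 6.34), against 3.40 ± 0.429 times at 70 dB (range 2.83 to 3.84). Per length of the longest transcript it was 3.45 ± 0.376 times at 94 dB, against 2.12 ± 0.268 times at 70 dB. The groups did not overlap, and the 2-sided exact permutation test gave p = 0.029, which is the smallest that 4 against 4 libraries allow. Over the 21 ratio tests made, which were chosen after the values had been seen, the adjusted p was 0.2. Such a ratio shows unequal change of 2 genes and not which of them moved.

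**Figure D3:**
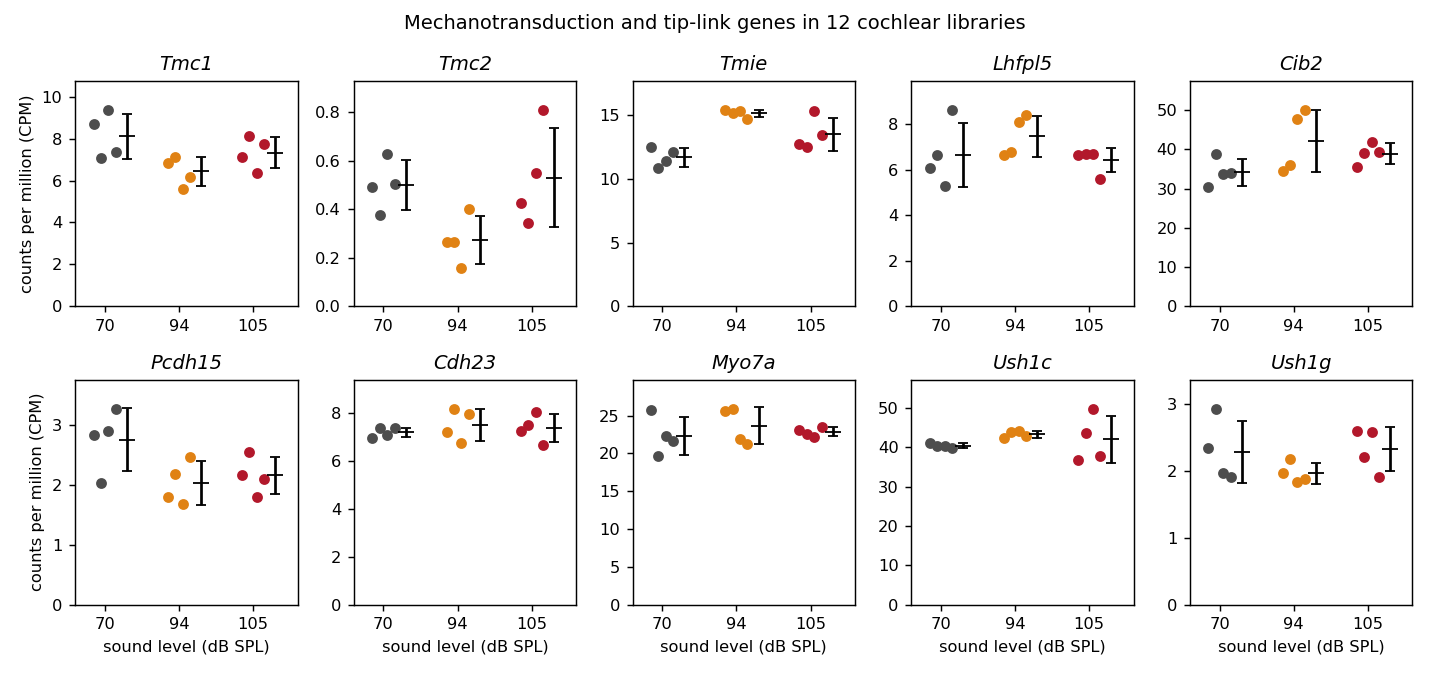
Level of each of the 10 genes in CPM in every library, 1 panel per gene, with 1 point per library and a bar for the mean ± SD of each group, at 70, 94 and 105 dB in order. In the Tmie panel the 4 libraries at 94 dB sit between 14.7 and 15.4, all above the 70 dB libraries, and in most other panels the groups overlap.

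The promoters of Tmie and Tmc1 are printed because these channel genes had values on opposite sides of 0 at 94 dB and their starts differ in CG content. Each is the RefSeq window of 250 bases before to 50 after the annotated start in GRCm38.p6, the assembly called mm10, on the minus strand and read 5′ to 3′, with every CG in capitals.
Tmie, chr9:110880024-110880323: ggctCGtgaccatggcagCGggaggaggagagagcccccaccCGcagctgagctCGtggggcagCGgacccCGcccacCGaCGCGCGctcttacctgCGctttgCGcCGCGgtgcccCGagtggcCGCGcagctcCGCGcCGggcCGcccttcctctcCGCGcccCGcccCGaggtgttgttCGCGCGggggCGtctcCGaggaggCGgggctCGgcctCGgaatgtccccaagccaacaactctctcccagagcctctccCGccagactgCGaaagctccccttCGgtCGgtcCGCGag
Tmc1, chr19:20954153-20954452: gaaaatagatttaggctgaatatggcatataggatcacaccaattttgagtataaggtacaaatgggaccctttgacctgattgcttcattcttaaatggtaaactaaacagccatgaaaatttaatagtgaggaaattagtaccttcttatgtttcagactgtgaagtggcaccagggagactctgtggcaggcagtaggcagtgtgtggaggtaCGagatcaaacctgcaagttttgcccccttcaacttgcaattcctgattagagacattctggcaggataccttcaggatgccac
The Tmie window held 39 CG pairs and 73.7% G and C, and the Tmc1 window 1 CG pair and 42%. Over the 32851 promoters of the same table the median was 7 CG pairs and 52.7% G and C. At least as many CG pairs as in Tmie were found in 4.45% of promoters, and at most as many as in Tmc1 in 14.1%. The 6 letters CAGCTG, a palindrome that reads the same on both strands, were in the windows of 4 of the 8 genes that had a window (Tmie, Lhfpl5, Myo7a and Pcdh15) and in 16.3% of all promoters. The 8 genes had 9 windows, since Myo7a has more than 1. The 16.3% counts windows and not genes, so these shares are not on the same scale. A match in these letters is a description and not a site of binding.

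Tmc1 (ENSMUSG00000024749, chromosome 19, 20783458 to 20954202, minus strand), the pore-forming subunit, had 6.86, 7.12, 5.62 and 6.16 CPM at 94 dB, against 8.69, 7.08, 9.35 and 7.34 CPM at 70 dB. The 94 dB libraries were mostly lower, but replicate 2 at 94 dB lay just above replicate 2 at 70 dB, so the groups overlapped. The log2 fold change was -0.33 (SE 0.13, 95% interval -0.60 to -0.07) and missed the threshold with an edgeR adjusted p of 0.0604. DESeq2 gave -0.33 with an adjusted p of 0.0453, and with the GC and length trend taken out the edgeR value was -0.15 (adjusted p = 0.394). Without replicates 3 and 4 at 94 dB, the lowest of their group, it was -0.21 (adjusted p = 0.415). At 105 dB the libraries had 7.13, 8.12, 6.37 and 7.73 CPM, overlapping both other groups, at -0.14 against 70 dB (adjusted p = 0.557).

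Tmc2 (ENSMUSG00000060332, chromosome 2, 130195194 to 130264445, plus strand) was close to the limit of what these libraries resolve. It had 9, 10, 5 and 15 counts in the 94 dB libraries, against 21, 16, 22 and 16 in the 70 dB libraries, or 0.273 ± 0.1 CPM at 94 dB against 0.5 ± 0.103 CPM at 70 dB. The 94 dB libraries lay lower, and replicate 4 at 94 dB overlapped replicate 2 at 70 dB in CPM. The log2 fold change of -0.85 had a 95% interval of -1.63 to -0.06 (edgeR adjusted p = 0.103). At 105 dB there were 17, 11, 17 and 30 counts, with replicate 4 highest, and the value against 94 dB was 0.94 (interval 0.16 to 1.73, unadjusted p = 0.0213, adjusted p = 0.0902). Counting alone gives a coefficient of variation of 25.2% at this depth, and the one between libraries of a group was 32.9%.

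Lhfpl5 (ENSMUSG00000062252, chromosome 17, 28575641 to 28585679, plus strand), the tetraspan protein that ties PCDH15 to the channel, had 6.62, 6.77, 8.08 and 8.39 CPM at 94 dB, against 6.07, 6.65, 5.26 and 8.60 CPM at 70 dB. The groups overlapped, and the 70 dB libraries held both the lowest and the highest value. This gave a log2 fold change of 0.17 (95% interval -0.13 to 0.47, edgeR adjusted p = 0.414), and after removal of the GC and length trend it was -0.05. Without replicates 3 and 4 at 94 dB, the highest of their group, it was 0.02 (adjusted p = 0.968). At 105 dB 3 libraries lay within 6.66 to 6.70 CPM and replicate 4 at 5.60 CPM.

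Cib2 (ENSMUSG00000037493, chromosome 9, 54544794 to 54560218, minus strand), the calcium-binding partner of TMC1, had 34.5, 36.1, 47.8 and 49.9 CPM in the 94 dB libraries, against 30.4, 38.8, 33.7 and 33.9 CPM in the 70 dB libraries. Replicates 3 and 4 at 94 dB were the highest of all 12 libraries, while replicates 1 and 2 lay inside the 70 dB range. The log2 fold change was 0.30 (SE 0.11, 95% interval 0.06 to 0.54, edgeR adjusted p = 0.0629). Without replicates 3 and 4 it was 0.05 (adjusted p = 0.803), and after removal of the GC and length trend 0.06. The call depended on 1 library in other ways: without replicate 1 at 94 dB it was 0.39 (adjusted p = 0.0137), without replicate 2 at 94 dB 0.37 (0.0313) and without replicate 2 at 70 dB 0.37 (0.0376). DESeq2 gave 0.30 (adjusted p = 0.0481). At 105 dB the libraries had 35.4, 39.0, 41.9 and 39.2 CPM, at 0.18 against 70 dB (adjusted p = 0.401).

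The same 2 libraries had more RNA of red blood cell genes than the others of their group. The summed level of 8 erythroid genes, among them the haemoglobin genes, was 18910, 22650, 31370 and 32520 CPM in the 94 dB libraries, against 18370, 22370, 18230 and 20460 CPM in the 70 dB libraries, and 22370, 25860, 31510 and 25430 CPM at 105 dB, where replicate 3 was highest in both Cib2 and this sum. Of these 8 genes 2 were higher, 1 was lower and 5 were not called at 94 dB against 70 dB (median log2 fold change 0.11). Replicates 3 and 4 at 94 dB also had the lowest shares of mitochondrial counts in their group, whose range was 2.69% to 3.58%. This share was 5.08% to 5.68% in the 70 dB libraries and 4.43% to 5.35% in the 105 dB libraries. The part of either in the Cib2 counts was not tested. Cib2 shares 227 bases of exon, 15.8% of its exon length, with Sh2d7 on the opposite strand, but Sh2d7 had only 0 to 3 counts in a library.

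**Figure D4:**
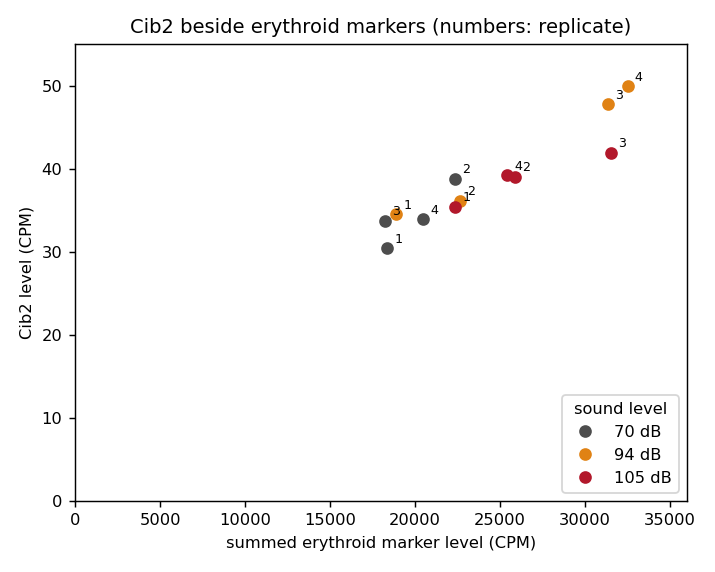
Level of Cib2 in CPM (vertical axis) against the summed level of 8 erythroid genes in CPM (horizontal axis), with 1 point per library coloured by sound level and numbered by replicate. Replicates 3 and 4 at 94 dB, at 47.8 and 49.9 CPM of Cib2, lie at the upper right, and the 70 dB libraries lie further left, none above 38.8 CPM of Cib2.

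Pcdh15 (ENSMUSG00000052613, chromosome 10, 73099342 to 74649737, plus strand), the lower part of the tip link, had 1.80, 2.18, 1.67 and 2.47 CPM at 94 dB, against 2.83, 2.03, 2.89 and 3.26 CPM at 70 dB. Replicate 2 at 70 dB was low and overlapped the 94 dB libraries, while the other 3 at 70 dB lay above them. The log2 fold change was -0.43 (SE 0.19, 95% interval -0.84 to -0.03) and missed the threshold (edgeR adjusted p = 0.107). Without replicate 2 at 70 dB it was -0.56 (adjusted p = 0.0472), and after removal of the GC and length trend -0.19. At 105 dB the libraries had 2.17, 2.55, 1.80 and 2.10 CPM, at -0.35 against 70 dB (adjusted p = 0.343), and the groups overlapped through the same 70 dB library.

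Cdh23 (ENSMUSG00000012819, chromosome 10, 60302748 to 60696490, minus strand), the upper part of the tip link, differed little between groups. It had 7.21, 8.18, 6.75 and 7.98 CPM at 94 dB, against 6.98, 7.38, 7.09 and 7.37 CPM at 70 dB. The groups overlapped, with the 70 dB values inside the 94 dB range. Its log2 fold change was 0.07 (95% interval -0.16 to 0.29, edgeR adjusted p = 0.689) at 94 dB against 70 dB and 0.03 (-0.19 to 0.26, adjusted p = 0.888) at 105 dB against 70 dB. Its coefficient of variation within groups, 6.98%, was near the 6.13% that counting gives. The level of Pcdh15 over Cdh23 on the log2 scale was lower by a difference of -0.50 at 94 dB against 70 dB (2-sided exact permutation p = 0.0571, adjusted p = 0.2 over the same 21 ratio tests).

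Of the upper anchor, Myo7a (ENSMUSG00000030761, chromosome 7, 98051060 to 98119524, minus strand), the motor, had 25.6, 25.9, 21.9 and 21.2 CPM at 94 dB, against 25.8, 19.7, 22.2 and 21.6 CPM at 70 dB. These ranges overlapped almost wholly, and the log2 fold change of 0.08 had an interval of -0.11 to 0.28 (edgeR adjusted p = 0.547). Without replicates 3 and 4 at 94 dB, the lowest of their group, it was 0.21 (adjusted p = 0.223). At 105 dB the libraries had 23.1, 22.6, 22.2 and 23.6 CPM and lay inside the 70 dB range, at 0.03 against 70 dB (interval -0.16 to 0.23, adjusted p = 0.875).

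Ush1c (ENSMUSG00000030838, chromosome 7, 46195350 to 46238503, minus strand), the scaffold harmonin, had 42.3, 43.9, 44.1 and 42.7 CPM at 94 dB, against 41.1, 40.2, 40.4 and 39.9 CPM at 70 dB. All 94 dB libraries were above all 70 dB libraries, by a small step: the log2 fold change was 0.10 (95% interval -0.07 to 0.27, edgeR adjusted p = 0.395). Tmie and Ush1c were the 2 of 10 genes whose libraries did not overlap between these groups, both higher at 94 dB, beside 25.4% of all genes tested in either direction and 13.0% higher. The Ush1c value was -0.06 with the GC and length trend removed, so its direction depended on that step. At 105 dB the libraries spread widely at 36.8, 43.5, 49.7 and 37.9 CPM, with replicate 3 the highest of the 12. In the comparison of 105 dB with 70 dB only Tmie did not overlap (1 of 10, beside 10.8% of all genes in either direction and 5.78% higher), and at 105 dB against 94 dB no gene of the 10 stood clear (beside 21.3%). Ush1c shares 120 bases of exon, 3.12% of its exon length, with Gm9860 on the opposite strand, which had 6 to 31 counts per library.

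Ush1g (ENSMUSG00000045288, chromosome 11, 115315192 to 115322041, minus strand), which encodes the scaffold Sans, had 1.97, 2.18, 1.83 and 1.88 CPM at 94 dB, against 2.34, 2.92, 1.97 and 1.91 CPM at 70 dB. The groups overlapped, and the log2 fold change was -0.22 (95% interval -0.61 to 0.16, edgeR adjusted p = 0.395). With the GC and length trend removed it lay further from 0, at -0.465 (edgeR adjusted p = 0.0927). At 105 dB the libraries had 2.59, 2.21, 2.58 and 1.91 CPM, at 0.02 against 70 dB (interval -0.37 to 0.40, adjusted p = 0.971). Against 94 dB the value was 0.24 (adjusted p = 0.401), and 0.47 with the trend removed (adjusted p = 0.112). The level of Ush1g over Myo7a on the log2 scale differed by -0.29 at 94 dB against 70 dB (exact permutation p = 0.029, adjusted p = 0.2 over the 21 ratio tests).

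Without replicates 3 and 4 at 94 dB the remaining genes were at -0.90 for Tmc2, -0.46 for Pcdh15, 0.10 for Cdh23, 0.10 for Ush1c and -0.14 for Ush1g at 94 dB against 70 dB, with edgeR adjusted p from 0.254 for Pcdh15 to 0.761 for Ush1g.

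The intervals at 105 dB, the louder exposure, differed in width between genes, and not by depth alone. The 95% intervals against 70 dB ran from -0.16 to 0.23 for Myo7a, from -0.12 to 0.22 for Ush1c and from -0.19 to 0.26 for Cdh23. That of Cib2, with 16543 counts over the 12 libraries, ran from -0.06 to 0.43, wider than that of Cdh23 with 3191. For Tmc2 the interval was -0.63 to 0.82, and differences within it were not detectable at this depth. The median size of the log2 fold change, sign ignored, was 0.07 over the 10 genes at 105 dB against 70 dB and 0.14 over all genes, 0.26 and 0.22 at 94 dB against 70 dB, and 0.14 and 0.19 at 105 dB against 94 dB.

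The 94 dB values were set beside the base composition of each gene. The longest transcripts of Tmc1 and Pcdh15 have 43.6% and 44.8% G and C and both had values below 0, while those of Tmie, Lhfpl5, Myo7a, Ush1c and Cdh23 have 55.9% to 56.8% and all had values above 0. Ush1g, with 59.6%, and Tmc2, with 50.4%, had values below 0, and Cib2, with 53.9%, had a value above 0, at 0.30. Across 16352 genes Spearman's rho between GC content and the log2 fold change at 94 dB against 70 dB was 0.505, and that with exon length was -0.326, both as descriptions across genes that are not independent replicates. Over the 10 genes alone rho was 0.321 with GC content and -0.576 with exon length. With the trend on both taken out of each library, 3 of the 10 genes were above 0 and 7 below. Calls over all genes fell to 3176. The cause of the trend was not tested.

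**Figure D5:**
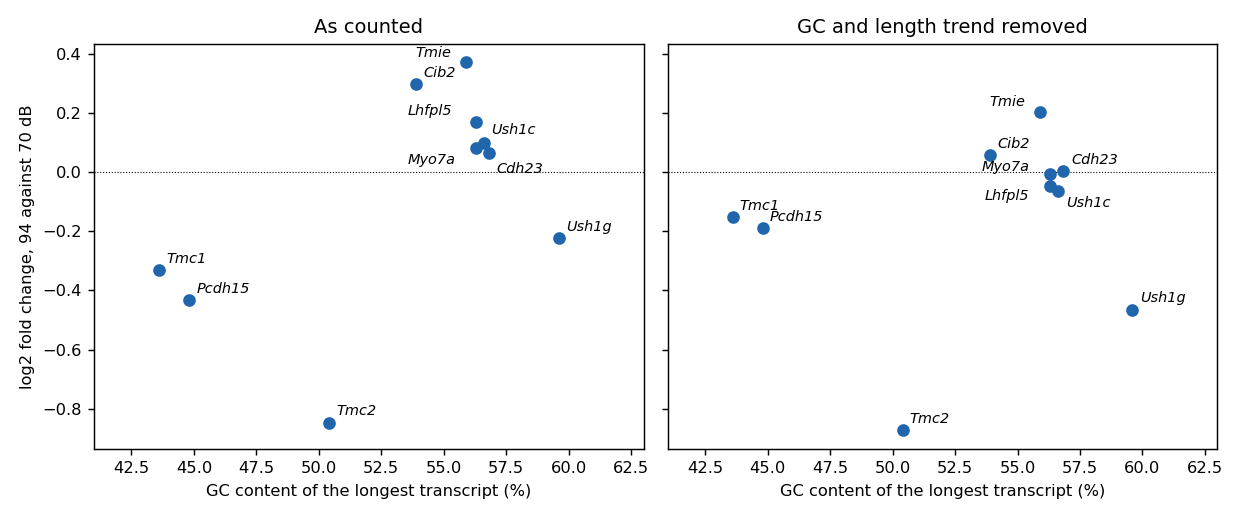
Log2 fold change at 94 against 70 dB (vertical axis) against the GC content of each gene's longest transcript in percent (horizontal axis), 1 point per gene, as counted on the left and after removal of the GC and length trend on the right. Tmc1 and Pcdh15 move closer to 0 on the right, to -0.15 and -0.19, and Tmie to 0.20. Tmc2 stays at -0.87, and Ush1g moves away from 0, from -0.22 to -0.465.

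The genes were also set against the hair cell markers of their own library. Relative to the summed CPM of the 20 markers, 0 of the 10 genes were called in any of the 3 comparisons by 2-sided exact permutation tests, with 0.343 the smallest p adjusted over the 30 tests, and a comparison of 4 against 4 libraries cannot give a p under 0.029. Adjusted over 30 tests, a few genes at this smallest p cannot pass, so the count of 0 says little. The genes that reached it unadjusted depended on the denominator. With the sum, which is mostly Pvalb and Calb2, they were Tmc2 at 94 dB against 70 dB (log2 difference -0.88) and Lhfpl5 at 105 dB against 94 dB (-0.25). With the geometric mean of the markers they were Tmc1 (-0.37) and Tmie (0.32), both at 94 dB against 70 dB. Without Pvalb, Calb2 and Myo6 they were Tmie at 94 dB against 70 dB (0.39) and Lhfpl5 at 105 dB against 94 dB (-0.46). With Xirp2 and Lmod3, which skeletal muscle also makes, left out as well, a choice made after seeing the data, they were Tmc1 (-0.41), Tmie (0.28) and Ush1g (-0.28) at 94 dB against 70 dB and Ush1g at 105 dB against 94 dB (0.31). Of the 20 markers themselves 0 were called at 94 dB or at 105 dB against 70 dB by edgeR.

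Markers of other cell types were counted in the same comparisons, first at 94 dB against 70 dB. Beside the 26.1% of all genes called (13.9% higher, 12.2% lower), of 18 supporting cell genes 8 were lower and 2 higher, of 15 neuronal genes 5 were lower and none higher, and of 9 macrophage genes 4 were higher and 1 lower. Among 12 Schwann cell genes 3 were lower and 1 higher, among 10 genes of the stria vascularis 2 were lower, and among 5 vestibular and 8 bone genes 1 each was lower, shares that lie near or below that of all genes or rest on few genes. None of 9 tested skeletal muscle genes was called. The erythroid genes are given with Cib2 above. At 105 dB against 70 dB 1 macrophage gene was lower and no other marker was called. At 105 dB against 94 dB, beside 17.3% of all genes, 4 supporting cell genes were higher and 2 lower, and 3 macrophage genes were lower. Of the stria vascularis genes 2 were higher and 1 lower, and of the erythroid genes 1 was higher and 1 lower. There 1 neuronal and 1 skeletal muscle gene were higher and 1 Schwann cell gene lower, and no vestibular or bone gene was called. The part of these in the values of the 10 genes was not tested.

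Other genes of the hair bundle and its links were taken as a list of 24, of which 23 were in the table and 22 were tested. At 94 dB against 70 dB 1 was higher and 4 were lower, with a median log2 fold change of -0.12. This share, 5 of 22, is no larger than the 26.1% called over all genes, and the genes are named to complete the list. Espn, whose product bundles stereociliary actin, averaged 35.2 ± 3.71 CPM at 94 dB and 29.2 ± 3.14 CPM at 70 dB (log2 fold change 0.27, edgeR adjusted p = 0.0422). Eps8, an actin regulator at the stereociliary tip, averaged 14.6 ± 1.64 CPM at 94 dB and 19.0 ± 1.37 CPM at 70 dB (-0.38, adjusted p = 0.00701). The other 3 were lower as well: Ptprq of the shaft connectors at -0.45 (adjusted p = 0.00805), Vezt of the ankle links at -0.35 (0.00746) and Atp2b2, the calcium pump of the stereocilia, at -0.21 (0.0441).

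At 105 dB against 70 dB 0 of the 22 were called, with Eps8l2, an Eps8 relative, at -0.45 (edgeR adjusted p = 0.0570) and Ptprq at -0.41 (0.0703) nearest to the threshold. Set against 94 dB, the 105 dB group had higher Eps8 (0.37, adjusted p = 0.0133) and lower Eps8l2 (-0.40, 0.0247), Whrn, the scaffold whirlin (-0.35, 0.0172), and Espn (-0.29, 0.0384). This is 1 of 22 higher and 3 lower, beside 17.3% of all genes called in this comparison (8.06% higher, 9.23% lower). Over all genes these calls fell from 3372 to 217 without replicates 3 and 4 at 94 dB. With the GC and length trend removed they fell to 1891. The most abundant members of this list that were not called were Myo1c, an unconventional myosin of the bundle, Cib3, a relative of Cib2, Clic5 and Pdzd7, at 15.3, 7.23, 5.80 and 2.55 RPKM over the 12 libraries.

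Across the 12 libraries the 10 genes did not vary as 1 block. Of their 45 pairs 21 had a Pearson's r above 0, the median r was -0.0294 and the range -0.764 to 0.681, and no pair passed after adjustment over the 45 by r or by rho. The lowest r was that of Tmc1 and Cib2, at -0.764 (permutation p = 0.00411, adjusted p = 0.185), with Spearman's rho of -0.699 (permutation p = 0.0142, adjusted p = 0.267). Without the 2 libraries farthest from the median of Tmc1 r was -0.689, and over deviations from the group means it was -0.637. Over those deviations the lowest r was that of Cib2 and Myo7a, at -0.898 (permutation p = 0.00647, adjusted p = 0.291). The r of that pair over the libraries as they are was -0.525.

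By a rule on the highest Pearson's r of log2 CPM over the 12 libraries among 19487 other genes, Gpatch8 (0.932) and Tnpo3 (0.925) were most like Tmc1, and Myl9 (0.979) and Bik (0.950) most like Tmie. For Cib2 these were Phb (0.969) and Hbb-bs (0.964), a haemoglobin gene that was itself higher at 94 dB than at 70 dB (log2 fold change 0.79, edgeR adjusted p = 0.0480). For Lhfpl5 they were Hist1h3f (0.913) and Tmem158 (0.910), and for Myo7a Meis1 (0.902) and Hnrnpa1 (0.885), while Vil1 (0.906) led for Pcdh15. The mean pattern of the 9 genes over 0.5 CPM was most like Gm6560 (0.908) and Cd300c (0.870). These are the highest of very many values over 12 libraries and describe likeness alone.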

How the data were processed

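The authors deposited raw whole-number counts of reads per gene for 12 cochlear libraries, which per the labels' protocols were made with an Illumina TruSeq RNA kit. The submitters' processing notes name CASAVA, STAR, featureCounts 1.5.0-p3 and mm10. The annotation, strand setting and treatment of multiply aligned reads were not given in the sources used. The sample titles supplied the groups and replicate numbers. Symbols, exon lengths and GC content came from GENCODE M21 of GRCm38, which named 35474 of 35496 genes. The rest held 0.00378% of the counts.

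The filterByExpr function, at a minimum count of 10, kept 19497 genes with 99.93% of counts. These were scaled by TMM factors and fitted with edgeR 4.0.16 in R 4.3.3, with a mean per group over all 12 libraries, glmQLFit with robust dispersions and glmQLFTest. The fit had 9 residual degrees of freedom and a common biological coefficient of variation of 0.133. Benjamini-Hochberg adjustment ran over all genes tested, with a threshold of 0.05. Standard errors were derived from the F statistic. RPKM used all annotated exons joined, and ratios were tested by exact permutation over libraries. Correlations between genes used log2(CPM + 0.1) and 100000 permutations. A floor of 3 counts limits what each library can show and covers counting error only. The fit was tested on simulated counts.

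The 10 genes and all lists were chosen with earlier results of these data known, and the skeletal muscle list was added after the data were seen. All 10 genes are named. Of the other hair bundle genes those called in any comparison and the 4 most abundant others were to be named, of each cell type list the 3 most abundant and up to 4 called, and for likeness the 2 highest genes per member and 10 for their mean. The text prints those that matter most. 1 marker gene is not reported here. Alternatives were DESeq2's size factors, upper-quartile factors, other filters, fits limited to the 8 libraries of a comparison, a replicate block, DESeq2 1.42.0, a GC and length trend (mgcv 1.9.3, 16239 genes), each library left out, and the 94 dB group without replicates 3 and 4.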

Additional observations from a re-analysis of the deposited data

Results flagged for a closer look

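Lhfpl5 in replicate 4 at 105 dB stood apart from its group, at 5.60 CPM, while the other 3 libraries lay within 6.66 to 6.70 CPM. The gap to the nearest library was 0.967 of the whole range of the group, above the 95% critical value of Dixon's test for 4 values. The SD of the whole group was 0.542 CPM, beside 1.42 CPM at 70 dB. This was 1 of 30 groups of libraries examined, and chance marks about 1 in 20. Without this library the log2 fold change of Lhfpl5 at 105 dB against 70 dB was 0.02 (edgeR adjusted p = 0.963), where all libraries gave -0.05 (adjusted p = 0.881).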

How the results depend on the processing

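The count of genes called at 94 dB against 70 dB was 1. It was 2 with upper-quartile factors and 2 with the replicate block, 3 with DESeq2, 0 with the GC and length trend removed and 0 with the replicate block and that trend together. Over all genes these fits called 5176, 5084, 5748, 3176 and 3382, in that order. They tested 19497 genes each, and DESeq2 gave 19244 an adjusted p. With each library left out in turn the count among the 10 genes was 1 to 4, beside 3452 to 5409 over all genes. The 4 came without replicate 2 at 70 dB, a fit that called 4444 of 19667 genes. At 105 dB against 70 dB and against 94 dB the count among the 10 was 0 in every alternative run, also with each library left out. No pair of the 45 passed in any alternative. The ratios to hair cell markers also gave 0 calls throughout, which is no sign of stability, since the smallest exact p that 4 against 4 libraries allow hardly passes adjustment over 30 tests. Libraries with the same replicate number were little alike: their deviations from the group means correlated at -0.149 to 0.182. For replicates 3 and 4 at 105 dB the numbers in the library names differ from the replicate numbers. Pairing by those names was not tested there. The replicate block gave 5084, 479 and 3366 calls over all genes in the 3 comparisons, beside 5085, 316 and 3372, and with the block Cib2 at 94 dB was called at 0.29 (edgeR adjusted p = 0.0377).

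Among the log2 fold changes, 34 of the alternative values reversed in sign, none of them called. At 94 dB against 70 dB, with the trend removed and with block and trend together, Lhfpl5 was -0.046 and -0.039, Myo7a -0.0076 and -0.0092, and Ush1c -0.063 and -0.063. At 105 dB against 94 dB the same settings gave 0.029 and 0.034 for Cib2, -0.089 and -0.077 for Pcdh15, 0.084 and 0.088 for Cdh23, 0.082 and 0.085 for Myo7a, and 0.12 and 0.11 for Ush1c. Cib2 was 0.14 without replicates 3 and 4 at 94 dB. With upper-quartile factors Ush1g at 105 dB against 70 dB was -0.0038. With each library left out, values at 105 dB against 70 dB ran from -0.18 to 0.25 for Tmc2, -0.14 to 0.10 for Lhfpl5, -0.0070 to 0.090 for Cdh23, -0.023 to 0.11 for Myo7a, -0.036 to 0.12 for Ush1c and -0.051 to 0.16 for Ush1g. At 105 dB against 94 dB they ran from -0.0028 to 0.19 for Pcdh15, -0.079 to 0.017 for Cdh23 and -0.14 to 0.014 for Ush1c. At 94 dB against 70 dB Tmie, Tmc1, Cib2, Pcdh15, Cdh23 and Ush1g kept their sign in all 22 alternatives, and Tmc2 in the 21 with a value. The lowest of these values for Cdh23 was 0.0011. The cause of each change was not tested. Depth limits Tmc2 most, with 5 to 30 counts in a library.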
